A study of Mus musculus with 6 samples.

Results

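Transcripts of the proteasome were followed in macrophages grown from mouse bone marrow, as 1 gene group of a study of 2 Toll-like receptor agonists and the kinase IRAK2. The members were the genes whose array symbol starts with Psma to Psmg and a digit, or with Psme1 to Psme4, and for which any probe had a detection p-value under 0.01 on at least 1 of the 6 arrays. This gave 43 genes of the 7149 named genes detected, out of 16593 named genes on the array. 2 further symbols that match, Psma1 and Psma6, which encode alpha-ring subunits, were not detected on any array. The 43 genes had 65 probes, of which 58 were detected, and the probe used for each gene was detected on all 6 arrays. Of the 43, 41 encode subunits, activators or assembly factors of the proteasome. The other 2 share only the beginning of the symbol: Psmc3ip encodes a recombination factor known from meiosis, and Psme3ip1 a partner of the activator subunit encoded by Psme3.

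The cells came from female mice of the strain given as 129/BL6, wild type or with an IRAK2 knockout, and were cultured for 5 days in L929-conditioned medium, which supplies the growth factor M-CSF. They stayed untreated or received R848 or CpG B, each at 1 µg/ml for 2 h, which makes 6 groups with 1 Illumina mouseRef-8 v2 bead array each. R848 is a small-molecule agonist of Toll-like receptor 7 in the mouse, and CpG B is an oligonucleotide agonist of Toll-like receptor 9; both receptors signal through MyD88 and IRAK kinases. The sources used here give neither the age of the mice nor the nature of the Irak2 allele nor how many mice stand behind an array.

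The proteasome degrades proteins tagged with ubiquitin. Its 20S core is a stack of rings of alpha and beta subunits, in which the constitutive beta subunits encoded by Psmb5, Psmb6 and Psmb7 carry the protease sites. The 19S particle, built of ATPases and non-ATPase subunits, binds ubiquitin chains, removes them and unfolds the substrate. In cells exposed to interferon, Psmb8, Psmb9 and Psmb10 replace Psmb5, Psmb6 and Psmb7 in newly built cores to form the immunoproteasome, and PA28 (Psme1 and Psme2) caps the core, which changes the peptides offered to MHC class I.

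Between 8968 and 9718 of the 25697 probes were detected per array (34.9% to 37.8%). The knockout arrays were not free of Irak2 signal. The brighter of its 2 probes had intensities of 534 (untreated), 3695 (R848) and 2618 (CpG B) on the wild-type arrays and of 378, 835 and 622 on those labelled knockout. The sources used here do not say where these probes lie relative to the deleted part of the gene, so they do not check the genotype. All 5 macrophage markers on the array (Adgre1, Itgam, Fcgr1, Mertk and Lyz2) were detected, while none of the T and NK cell, fibroblast, erythroid and mast cell markers on the array was, and of the B cell markers only Cd79b was. Limma called no macrophage marker for genotype. Their summed intensity, not normalized between arrays, was 39863 to 45330 in the knockout against 51950 to 56276 in wild type. Of 10 dendritic cell markers, the 4 detected were MHC class II genes, with Itgax, Flt3 and Zbtb46 among those not detected. All 4 were called higher in the knockout by limma. The summed intensity of all 10, not normalized between arrays, was 14698 to 16978 in the knockout against 4585 to 8427 in wild type. Of 6 detected neutrophil markers, limma called 3 lower in the knockout. The sums of the same kind over the 7 on the array were 8260 to 12732 there, against 16947 to 18890 in wild type. The part of these cell-type differences in the results on genotype was not tested.

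Values are normalized intensities on a linear scale, differences are on the log2 scale, and each single value rests on 1 array, so it has no SD. A limma fit with the terms genotype and agent used all 6 arrays and so compared each agent with the untreated arrays over both genotypes. The words rose and fell are kept for members with a limma adjusted p under 0.05 over all genes tested in that fit, 7149 on the 6 arrays. Because the labels do not say that arrays came from separate cultures, these p-values measure only the spread between these arrays, which may be technical. A second untreated array per genotype was recovered from the deposited processed values, and a limma fit on the resulting 8 arrays gave single comparisons a p-value. That fit takes its spread (2 residual degrees of freedom) only from the pairs of untreated arrays and assumes the same spread for stimulated arrays. In bulk RNA, fewer cells of a type and less RNA per cell cannot be told apart.

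After R848 most proteasome transcripts lay near their untreated level. Psmd10, Psmb6 and Psmd11 rose and Psmc3ip and Psmg2 fell, so 3 of 43 members were called higher and 2 lower. Over all 7149 genes, 12.1% were called higher and 17.3% lower. CpG B gave 1 member higher, Psmd10, against 4.70% of all genes, and 1 lower, Psmc3ip, against 3.99%. The members' median effect was 0.07 for R848 and 0.06 for CpG B, and that of all genes -0.08 and -0.04. For R848, 32 of the 43 members lay within 0.25 of no difference, against 43.8% of all genes. For CpG B, 30 members lay within 0.25, against 56.9% of all genes. The members were brighter than the genes compared: on the wild-type untreated array their median log2 intensity was 11.37 against 9.22. Untreated arrays of a genotype also differed less for members (median 0.10 against 0.15 in wild type, 0.11 against 0.14 in the knockout). The part of brightness in the narrower spread of the members was not tested. Both agents were compared with the same untreated arrays, so their effects are not independent of each other. The fit leaned on those arrays: without the untreated array of either genotype, no member was called for either agent, and over all genes R848 had 2 calls without the wild-type array and 27 without the knockout array. Over all genes CpG B also had fewer calls without either untreated array. Without the wild-type R848 array, or the CpG B array of either genotype, 1 array of that agent is left. Fewer members, and fewer genes over all, were then called for that agent. Without the knockout R848 array, R848 had more of both.

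**Figure D1:**
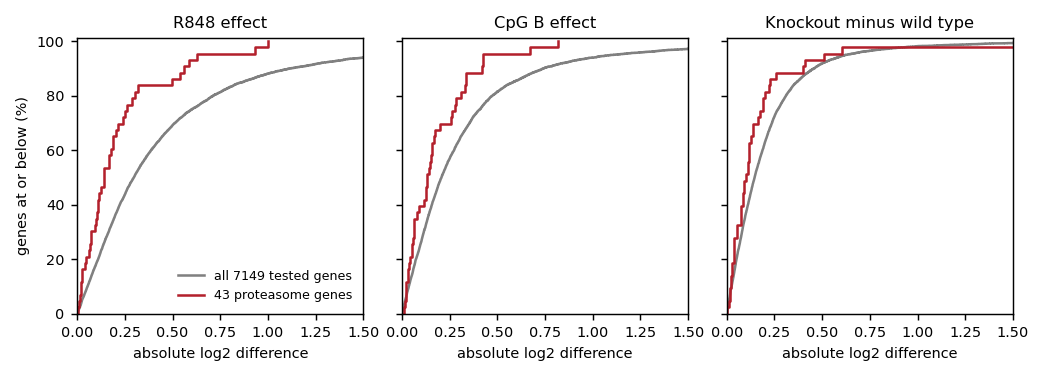
Cumulative share of genes (y axis, percent) at or below an absolute log2 difference (x axis) in the limma fit on 6 arrays. Shown are the 43 members (red), which include Psmc3ip and Psme3ip1, and all 7149 tested genes (grey), for R848, CpG B and genotype. The red curves stand to the left of the grey ones for both agents (medians 0.14 against 0.30 for R848 and 0.13 against 0.21 for CpG B); for genotype, Psmd8 at 3.05 lies beyond the right edge.

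The alpha ring, which forms the gate of the core, gave no call in the fit on 6 arrays. Its 5 detected genes had R848 effects between -0.14 and 0.14 and CpG B effects between -0.12 and 0.14. The 6 ATPase genes Psmc1 to Psmc6, which encode the motor of the 19S particle, also gave no call in that fit, with effects between -0.02 and 0.25 for R848 and between -0.13 and 0.28 for CpG B. Psmc6 measured 207 (untreated), 233 (R848) and 212 (CpG B) in wild-type and 193, 242 and 238 in knockout cells. Each stimulated array was above the untreated array of its genotype by a small span. With the authors' processed values Psmc6 passed for R848 (0.42, limma adjusted p = 0.0358), and its wild-type untreated arrays differed by 0.53 from each other.

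Among the 7 constitutive beta subunits only Psmb6, which carries the caspase-like site, was called in the fit on 6 arrays. Its normalized intensity was 7797 (untreated), 9991 (R848) and 9159 (CpG B) in wild-type cells, and 6899, 11738 and 10587 in knockout cells. Both stimulated arrays stood above the untreated array of their genotype, and the spans were wider in the knockout. Psmb6 rose with R848 by 0.56 (SE 0.15, limma adjusted p = 0.0409, higher in 2 of 2 genotypes), while the CpG B difference of 0.43 had a limma adjusted p of 0.142. On 8 arrays the R848 difference was 0.29 in wild type (limma adjusted p = 0.199) and 0.72 in the knockout (limma adjusted p = 0.00944). The difference between these responses was 0.43 and was not called (limma adjusted p = 0.705). The call for R848 in the fit on 6 arrays was lost in 9 of 15 alternatives, among them the authors' processed values.

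Psmb5, of the chymotrypsin-like site, measured 1962, 2558 and 2311 in wild-type and 2044, 2182 and 2491 in knockout cells (untreated, R848, CpG B). Psmb7, of the trypsin-like site, measured 5506, 5052 and 5299 in wild-type and 6901, 5897 and 5775 in knockout cells. Psmb5 was above its untreated array in all 4 stimulated arrays and Psmb7 below it in all 4, and neither was called. The direction of Psmb7 is that of 1 of its 3 probes: the other 2 were above the untreated array in all 4, with R848 effects of 0.26 and 0.21 against -0.18 for the probe used, and none was called.

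The immunoproteasome genes, whose products replace the constitutive catalytic subunits, had no call for either agent in the fit on 6 arrays. Psmb10 measured 2652.5 (untreated), 4320.5 (R848) and 2849.7 (CpG B) in wild-type cells, and 1989, 2440.3 and 2917 in knockout cells. The wild-type array after R848 stood above all others. On 8 arrays Psmb10 rose with R848 in wild type by 0.77 (SE 0.16, limma adjusted p = 0.00421), and its knockout difference was 0.28 (limma adjusted p = 0.273). The difference between these responses was -0.50 and was not called (limma adjusted p = 0.596).

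Psmb9 measured 2101, 2665 and 2373 in wild-type and 1769.8, 1431 and 1501 in knockout cells (untreated, R848, CpG B). Both stimulated wild-type arrays were above the untreated one, and both stimulated knockout arrays were below theirs. The R848 differences on 8 arrays were 0.32 in wild type and -0.23 in the knockout and were not called (limma adjusted p = 0.158 and 0.371), and neither was their difference of -0.54 (limma adjusted p = 0.505). Psmb8 measured 457, 539 and 458 in wild-type and 464, 433 and 439 in knockout cells. Its 6 arrays lay close together, and it was not called in any comparison.

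The activators gave no call for either agent in the fit on 6 arrays. Psme1 measured 5011, 6396 and 5604 in wild-type and 5145, 5797 and 5694 in knockout cells (untreated, R848, CpG B). Psme2 measured 809, 1015 and 731 in wild-type and 537, 652 and 729 in knockout cells. The R848 array was the highest of its genotype for Psme1 in both genotypes, and for Psme2 in wild type. Psme3, of the nuclear activator PA28-gamma, measured 1725, 1887 and 2333 in wild-type and 2411, 2868 and 3181 in knockout cells. Psme4, which encodes the activator PA200, measured 3378, 2831 and 3176 in wild-type and 3398, 3341 and 3186 in knockout cells. Psme3 ended highest after CpG B in both genotypes, with a CpG B difference of 0.42 (limma adjusted p = 0.094).

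Psmd10 had the largest effect of the group for both agents in the fit on 6 arrays among members that were higher. It encodes gankyrin, a chaperone that assists assembly of the 19S base, and its normalized intensity was 1925 (untreated), 3713 (R848) and 2699 (CpG B) in wild-type cells. In the knockout it was 1598, 3313 and 2894. All 4 stimulated arrays stood above both untreated arrays. Psmd10 rose with R848 by 1.00 (SE 0.14, limma adjusted p = 0.00734) and with CpG B by 0.67 (SE 0.14, limma adjusted p = 0.0462). Its 3 probes gave 1.37, 1.13 and 1.00 for R848, and limma called each. On 8 arrays the R848 difference was 1.01 in wild type and 1.08 in the knockout (limma adjusted p = 0.000935 and 0.00109), and the responses differed by 0.07 (limma adjusted p = 0.994). Among all genes Psmd10 ranked 855 of 7149 by size of the R848 effect. Without an untreated array of either genotype the R848 differences were 1.12 and 0.88 and were not called, and the call for CpG B was lost in 7 of 15 alternatives.

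The other chaperones did not move together. Psmg2, which with Psmg1 helps to build the alpha ring, measured 1075, 660.2 and 897 in wild-type and 1111, 801 and 836 in knockout cells (untreated, R848, CpG B). Every stimulated array was below both untreated arrays. Psmg2 fell with R848 by 0.59 (SE 0.14, limma adjusted p = 0.0303), and both of its probes were called (-0.59 and -0.54). The Psmg2 call for R848 was lost in 3 of 15 alternatives. The CpG B difference of Psmg2, -0.34, was not called (limma adjusted p = 0.194). Psmg1 and Psmg3, the remaining detected chaperones of 20S assembly, and Psmd5 and Psmd9, of 19S assembly, were not called for either agent.

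Of the 10 non-ATPase genes of the 19S particle, R848 gave a call for Psmd11, a scaffold subunit that clamps the 19S lid to the core. Its normalized intensity was 847.8, 1288 and 1097 in wild-type and 1021, 1417 and 1418 in knockout cells (untreated, R848, CpG B). All 4 stimulated arrays stood above both untreated arrays. Psmd11 rose with R848 by 0.54 (SE 0.13, limma adjusted p = 0.0282), and both detected probes were called (0.54 and 0.48). The Psmd11 call for R848 was lost in 4 of 15 alternatives. The CpG B difference of 0.42 was not called (limma adjusted p = 0.0997). For Psmd7, a lid subunit that pairs with the deubiquitinase Psmd14, the probes disagreed: the probe used gave 0.21 for R848 and was not called, and the other gave 0.57 and was called (limma adjusted p = 0.0249).

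For Psmd8, a further lid subunit, the arrays of the genotypes lay far apart. In wild type its normalized intensity was 510.2 (untreated), 1104 (R848) and 755 (CpG B). In the knockout it was 6083, 6708 and 5885. The wild-type arrays were lowest untreated and highest after R848, and the knockout arrays lay within a narrower log2 range than the wild-type arrays. On 8 arrays Psmd8 rose in wild type with R848 by 1.13 (SE 0.16, limma adjusted p = 0.00031) and with CpG B by 0.60 (limma adjusted p = 0.0427). The knockout differences were 0.12 and -0.08 (limma adjusted p = 0.653 and 0.828). The difference between the R848 responses was -1.01 and missed the threshold (limma adjusted p = 0.0823), and that between the CpG B responses was -0.67 (limma adjusted p = 0.849).

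The 2 members that are not subunits, activators or assembly factors of the proteasome included the most negative effect. Psmc3ip measured 801, 431 and 496 in wild-type and 936, 479 and 488 in knockout cells (untreated, R848, CpG B). All 4 stimulated arrays stood below both untreated arrays. Psmc3ip fell by 0.93 with R848 (SE 0.13, limma adjusted p = 0.00684) and by 0.82 with CpG B (limma adjusted p = 0.0215). Of 15 alternatives, the call was lost in 2 for R848 and in 4 for CpG B. Psme3ip1 had effects of -0.06 and -0.08 and was not called.

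**Figure D2:**
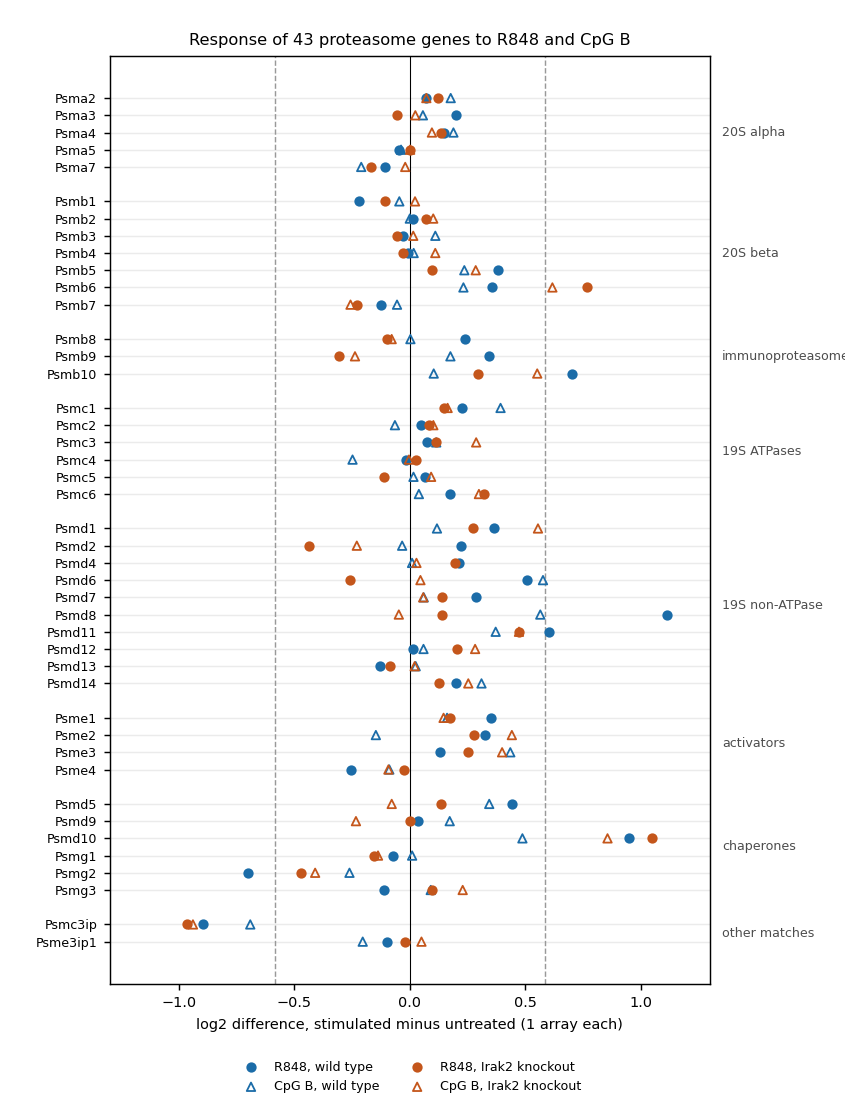
Log2 difference of each stimulated array from the untreated array of its genotype (x axis) for the 43 members, grouped by role. Psmc3ip and Psme3ip1 are not proteasome subunits. Blue is wild type, orange the Irak2 knockout, filled circles R848, open triangles CpG B, 1 array each, and dashed lines mark 1.5-fold. Most points lie between the dashed lines, with Psmc3ip to the left of the lower line under both agents and Psmd10 to the right of the upper line except after CpG B in wild type (0.49), and Psmd8 to the right in wild type after R848.

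The sizes of single-array differences were also counted, with no p-value. After R848 in wild type, 1 member, Psmd8, was at least 2-fold higher and no member was 2-fold lower, where 15.6% of all genes passed 2-fold in either direction. At 1.5-fold, 4 members were higher and 2 lower, against 31.9% of all genes. After CpG B in wild type, no member passed 2-fold (5.24% of all genes did) and 1 was lower by 1.5-fold (15.0%). After R848 in the knockout, Psmd10 passed 2-fold (10.4% of all genes did), and 2 members were higher and 1 lower by 1.5-fold (23.4%). After CpG B in the knockout, none passed 2-fold (8.0% of all genes), and 2 were higher and 1 lower by 1.5-fold (18.5%). The recovered untreated arrays give the scale of these numbers. Between the untreated arrays of a genotype, no member differed by 1.5-fold. Of 6366 genes, 1.93% passed that size for the wild-type pair and 2.34% for the knockout pair. At shares this low, the lack of a member past 1.5-fold does not set the members apart. The members' median absolute difference was 0.10 (wild type) and 0.11 (knockout), against 0.15 and 0.14 for all genes.

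Called on 8 arrays within a genotype, R848 changed 6 members in wild type (33.6% of 6366 genes were called) and 3 in the knockout (21.8%). In wild type Psmd10, Psmd11, Psmd8 and Psmb10 were higher and Psmc3ip and Psmg2 lower. CpG B changed 1 member in wild type, Psmd8 (8.33%), which was not called when 7149 genes were tested, and 3 in the knockout (15.0%). The 3 knockout members were the same for both agents: Psmb6 and Psmd10 higher and Psmc3ip lower. When 7149 genes were tested, Psmb6 was not called for CpG B in the knockout (limma adjusted p = 0.0615). A direct comparison of R848 with CpG B on 6 arrays gave no limma call among the members or among all genes (0%), with 941 genes and 0 members at an unadjusted p under 0.05. A term for a different stimulus response in the knockout also gave no limma call (0%), with 136 genes and 1 member, Psmd8, at an unadjusted p under 0.05. On 8 arrays the R848 response differed between genotypes in 60 genes (0.943%) and in no member, with 555 genes and 3 members at an unadjusted p under 0.05. The CpG B response differed in no gene (0%), with 264 genes and 1 member at an unadjusted p under 0.05.

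Averaged over both genotypes on 8 arrays, each agent had more calls than in the fit on 6 arrays. R848 gave 6 members higher, against 15.3% of all genes, and 2 lower, against 27.0%, adding Psmb10 (0.52), Psmd8 (0.62) and Psmc6 (0.43, limma adjusted p = 0.0458). CpG B gave 5 higher, against 8.86%, and 1 lower, against 14.3%, adding Psmb10, Psmb6, Psmd11 and Psme3, with differences of 0.36 to 0.37 and limma adjusted p-values of 0.0402 to 0.0467. Averaged over treatment states, genotype gave 2 members higher, against 5.51%, and 2 lower, against 5.17%: besides Psmd8, Psme3 was higher by 0.46 (limma adjusted p = 0.0146), Psmb9 lower by a difference of -0.62 (limma adjusted p = 0.00272) and Psmb10 lower by one of -0.36 (limma adjusted p = 0.0451).

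The starts of Psmd10 and Psmb6, the subunit and chaperone genes that rose with R848 in the fit on 6 arrays and with both agents in the knockout on 8 arrays, are shown for their sequence context. Each runs 5′ to 3′ on the gene's strand from 250 bases before to 50 after the start given by RefSeq (GRCm38.p6), at chrX:140956662-140956961 on the minus strand for Psmd10 and chr11:70525107-70525406 on the plus strand for Psmb6. Capitals mark matches, on either strand, to CCAAT (read as ATTGG on the other strand) in Psmd10 and to TGANNNNGC, the core of the antioxidant response element, in Psmb6.
Psmd10: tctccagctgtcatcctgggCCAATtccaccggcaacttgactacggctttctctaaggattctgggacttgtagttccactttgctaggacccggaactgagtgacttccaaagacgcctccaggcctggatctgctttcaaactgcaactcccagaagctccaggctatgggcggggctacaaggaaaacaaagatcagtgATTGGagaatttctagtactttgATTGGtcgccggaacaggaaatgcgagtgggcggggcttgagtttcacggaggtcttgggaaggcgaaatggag
Psmb6: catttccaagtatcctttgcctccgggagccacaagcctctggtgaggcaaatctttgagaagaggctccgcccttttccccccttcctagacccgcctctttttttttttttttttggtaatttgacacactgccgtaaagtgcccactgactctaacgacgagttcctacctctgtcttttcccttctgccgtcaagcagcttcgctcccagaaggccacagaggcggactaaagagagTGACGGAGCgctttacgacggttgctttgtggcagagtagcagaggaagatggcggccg
Psmd10 holds 3 CCAAT matches and none of TGANNNNGC, and Psmb6 holds 1 match of TGANNNNGC and none of CCAAT. Neither window holds the interferon response letters GAAANNGAA or an NF-kB consensus match.

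Over the group, 40 promoter windows of 37 of the 43 genes were found in the RefSeq table. The missing entries are Psmd7, Psmb1, Psmg2, Psmc3, Psmb7 and Psmb2. TGANNNNGC was in 23 of the 40 windows (57.5%) and in 41.3% of all 32851 promoter windows. CCAAT was in 13 (32.5%) and in 37.4% of all. GAAANNGAA was in 6 (15%), those of Psmb3, Psmb4, Psmc2, Psmd4, Psmd9 and Psme1, and in 8.56% of all. The NF-kB consensus was in 1, that of Psmd12, and in 4.51% of all. The motifs were searched on both strands, and their matches can overlap. A match describes letters only.

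**Figure D3:**
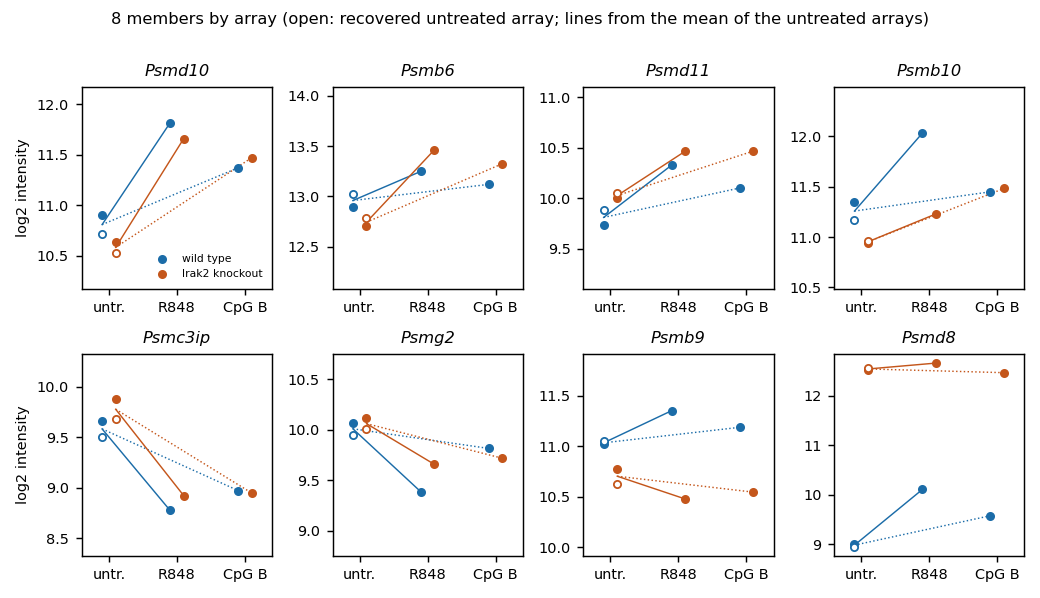
Log2 normalized intensity (y axis) of 8 members on 8 arrays. Blue is wild type and orange the Irak2 knockout. Filled stimulated points are the deposited processed values. Filled untreated points are the deposited intensities mapped by rank to the distribution of the stimulated arrays. Open points are the recovered untreated arrays. Lines run from the mean of the untreated arrays to R848 (solid) and CpG B (dotted). The y axes are equally long except for Psmd8, whose range is wider; the lines of both genotypes run up for Psmd10 and down for Psmc3ip, and the genotypes of Psmd8 lie far apart.

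The largest difference of the group lay between genotypes, in Psmd8. Its normalized intensity of 510.2, 1104 and 755 in wild type stood against 6083, 6708 and 5885 in the knockout, and the lowest knockout array was above the highest wild-type array. The single-array ratios were 11.9-fold untreated, 6.08-fold after R848 and 7.79-fold after CpG B. In the fit on 6 arrays Psmd8 was higher in the knockout by 3.05 (SE 0.19, 8.27-fold, limma adjusted p = 0.00212, higher in 3 of 3 treatment states), rank 7 of 7149 genes by size. On 8 arrays the differences were 3.56, 2.55 and 2.89 (limma adjusted p = 1.54e-07, 5.49e-05 and 4.16e-05). The recovered untreated arrays lay within 0.06 of the deposited ones in both genotypes.

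The Psmd8 value rests on 1 probe. The call was kept in all 15 alternatives, with differences between 2.78 and 3.27. Of the 5 detected genes on each side of Psmd8 on chromosome 7, 1 of 10, Zfp30, was called for genotype (-0.87, limma adjusted p = 0.0225). The other 9 had no call. The strain is given as 129/BL6 for both genotypes, and the sources used here do not say whether both carry the same Psmd8 allele. The part of a strain allele in the Psmd8 difference was not tested.

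Psmd8 was the only member called for genotype in the fit on 6 arrays, with 1 member higher against 1.76% of all genes and none lower against 1.64%. At an unadjusted p under 0.05 there were 5 members and 1350 genes. The members' median genotype effect was 0.01, and 37 of 43 lay within 0.25, against 72.3% of all genes. Psme3 had a knockout minus wild-type difference of 0.51 (limma adjusted p = 0.0603) and Psmb9 one of -0.60 (limma adjusted p = 0.106), each with the same sign in all 3 treatment states.

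On 8 arrays 3 members were called between genotypes after R848, against 5.77% of all genes. Psmd8 was higher, while Psmb9 was lower by a difference of -0.87 (SE 0.19, limma adjusted p = 0.0226) and Psmb10 by -0.80 (SE 0.19, limma adjusted p = 0.0347). The other detected probe of Psmb10 gave -0.55 between the single arrays after R848, against -0.82 for the probe used. Psme2, the PA28 partner, had -0.62 and was not called (limma adjusted p = 0.121). Untreated and after CpG B, only Psmd8 was called (3.50% and 1.95% of all genes). There Psmb9 differed by -0.33 and -0.64 (limma adjusted p = 0.251 and 0.153) and Psmb10 by -0.30 and 0.03 (limma adjusted p = 0.308 and 0.987). Over the 7149 genes detected on at least 1 array, the same fit called 1 member after R848, so the calls of Psmb9 and Psmb10 depend on which genes are tested. The MHC class II markers were higher in the knockout arrays, and the sums of the neutrophil and macrophage markers were lower, as given above. The part of these marker differences in these calls was not tested.

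**Figure D4:**
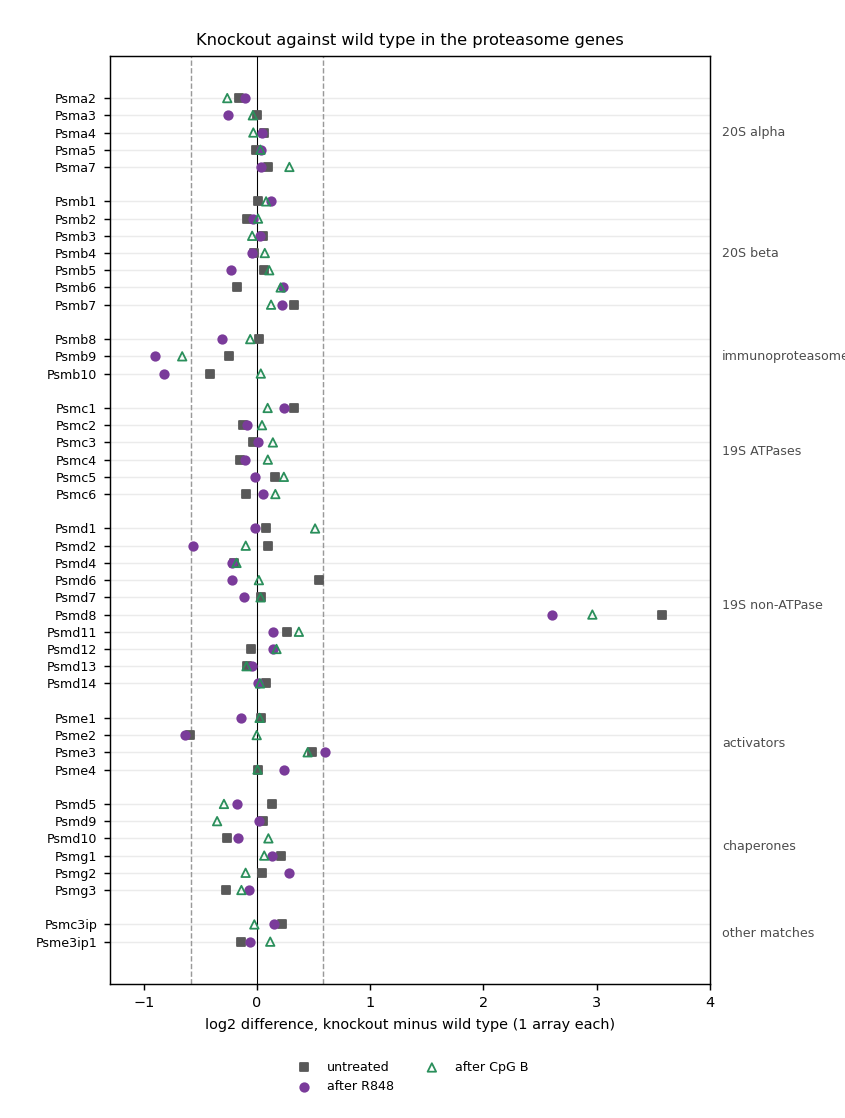
Log2 difference between knockout and wild-type arrays (x axis) for the 43 members, which include Psmc3ip and Psme3ip1, grouped by role. Grey squares are untreated, purple circles after R848 and green triangles after CpG B, 1 array each, and dashed lines mark 1.5-fold. Psmd8 lies at 3.58, 2.60 and 2.96, Psmb9 and Psmb10 lie left of the lower line after R848 (-0.90 and -0.82), and most other points are between the lines.

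In single arrays, Psmd8 alone passed 2-fold in each comparison of genotypes, against 2.16% of all genes untreated, 4.68% after R848 and 2.73% after CpG B. At 1.5-fold, 1 member was higher and 1 lower untreated (8.31% of all genes passed). After R848, 2 were higher (Psmd8 and Psme3) and 3 lower (Psmb9, Psmb10 and Psme2), against 13.8%. The other detected probe of Psmb10 did not pass 1.5-fold there (-0.55). After CpG B, 1 was higher and 1 lower (Psmd8 and Psmb9), against 8.37%.

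The starts of Psmd8 and Psmb9 are shown because these members differed most between genotypes in either direction in the fit on 6 arrays. They are RefSeq windows of GRCm38.p6 of the same length, at chr7:29180624-29180923 on the minus strand for Psmd8 and chr17:34187281-34187580 on the minus strand for Psmb9. Capitals mark matches to TGANNNNGC and CCAAT on either strand.
Psmd8: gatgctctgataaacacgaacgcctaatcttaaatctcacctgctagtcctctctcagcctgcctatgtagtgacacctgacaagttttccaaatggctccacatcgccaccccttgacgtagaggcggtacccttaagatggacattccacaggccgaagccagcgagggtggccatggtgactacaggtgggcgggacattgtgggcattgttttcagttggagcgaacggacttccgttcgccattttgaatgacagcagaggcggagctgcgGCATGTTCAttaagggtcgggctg
Psmb9: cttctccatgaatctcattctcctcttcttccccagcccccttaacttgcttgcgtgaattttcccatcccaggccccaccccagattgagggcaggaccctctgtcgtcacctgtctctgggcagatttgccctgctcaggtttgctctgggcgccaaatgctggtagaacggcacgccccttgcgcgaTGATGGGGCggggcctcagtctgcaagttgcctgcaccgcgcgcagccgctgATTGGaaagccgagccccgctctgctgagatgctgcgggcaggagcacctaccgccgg
Psmd8 holds 1 match of TGANNNNGC, on the other strand, and none of CCAAT. Psmb9 holds 1 match of each. GAAANNGAA and the NF-kB consensus have no match in either window.

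Psmb9 and Psmb8 lie among antigen presentation genes on chromosome 17. Of the 5 detected genes on each side of Psmb9, H2-Ab1 and H2-Aa, which encode MHC class II chains, were called higher in the knockout (2.83-fold and 2.85-fold, limma adjusted p = 0.0038 and 0.00885). Tap1 and Tap2, which encode the peptide transporter of MHC class I, had -0.59 and -0.57 and were not called (limma adjusted p = 0.189 and 0.0796). After R848 on 8 arrays Tap1 was lower in the knockout by -1.14 (limma adjusted p = 0.00547) and Tap2 by -0.81 (limma adjusted p = 0.0426). Neighbours on this stretch had differences of both signs.

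Genes that work with the proteasome were read from 3 further lists. Of 9 detected partners, 2 rose with each agent, against 12.1% of all genes for R848 and 4.70% for CpG B, and none fell: Nfe2l1, a transcription factor known to drive proteasome genes when proteasome activity drops (R848 1.08, limma adjusted p = 0.00508), and the stress factor Nfe2l2 (1.23, limma adjusted p = 0.00338). With CpG B they rose by 0.85 and 0.93 (limma adjusted p = 0.0215 and 0.0154). Pomp, a chaperone of 20S assembly, had -0.13 and -0.09 and was not called. Of 6 detected genes for ubiquitin-dependent delivery, only Nploc4, a cofactor of the unfoldase VCP, rose with R848 (0.48, limma adjusted p = 0.0317), against the same 12.1%, and none was called for CpG B. No gene of the partner and delivery lists was called for genotype.

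Of 12 detected MHC class I presentation genes, 5 rose with R848, against 12.1% of all genes, and none fell, against 17.3%: the transcription factor Irf1 (1.74), the transactivator Nlrc5 (1.21), Tap1 (0.88), Tapbpl (0.70) and H2-K1 (0.60). CpG B gave 2 higher, Irf1 and Tapbpl, against 4.70%, and none lower, against 3.99%. In the knockout 1 was lower, Nlrc5, by a difference of -0.89 (limma adjusted p = 0.0381), against 1.64%, and none higher, against 1.76%. The list's median was 0.50 for R848, 0.30 for CpG B and -0.24 for genotype, against -0.08, -0.04 and 0.00016 for all genes. The 3 immunoproteasome genes had medians of 0.07, -0.03 and -0.40 in the same fit.

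For 13 members with more than 1 detected probe, the probes could be set against each other by their differences. The gap was widest for Psmd6, a lid subunit, where the probes differed by 0.70 in the untreated genotype comparison. Psmg2 differed by 0.56 between probes in the genotype comparison after R848, Psmd10 by 0.56 for R848 in wild type, and Psmb7 by 0.51 for R848 in the knockout. For the other 9 members the gap was 0.41 or less.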

How the data were processed

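RNA of 6 groups, with 1 array each, was analysed, and the labels' genotype and agent set the groups. The authors deposited probe intensities that were not normalized between arrays, with a detection p-value per probe, and a processed intensity per sample. Per the submitters' processing notes BeadStudio was used, and its version is not stated in the sources at hand. Per the labels' protocols, RNA was amplified by in vitro transcription. All intensities are linear, and values below 0 (33.4% to 34.4% per array) show that background had been subtracted. Depth has no counterpart on arrays, and the number of arrays limits the precision.

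The computations used limma 3.58.1 under R 4.3.3. Its neqc corrected the background from the detection p-values, added an offset of 16, quantile normalized the 6 arrays and took log2, and linear values include the offset. Probes were named by the platform annotation (1719 of 25697 had no name), and the probe with the highest mean stood for a gene. The fits used genes detected on at least 1 array, with Benjamini-Hochberg adjustment over all of them. The fit with genotype and agent left 2 residual degrees of freedom, and the one with a stimulus by genotype term left 1.

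The processed columns of the untreated samples were taken to be means of 2 arrays. The deposited array was mapped by rank to the distribution of the stimulated arrays. Subtracting it from 2 times the column gave the second array. The sorted values lay within 0.5 units of the common distribution for 99.7% of probes in both genotypes. The fit on these 8 arrays tested 6366 genes, those that both deposited untreated arrays detected. The scripts were tested on simulated data.

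The members, lists and tests were chosen with earlier results of these data known. Values in every sample are given for members called in a fit or past 2-fold and for catalytic, immunoproteasome and activator subunits, and for genes of other lists only calls, direct counterparts or chromosomal neighbours are named. The alternatives were no background correction, median scaling, the processed values, another offset, other filters on detection, the mean over probes, no genotype or no agent terms, and leaving out each array.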

Additional observations from a re-analysis of the deposited data

How the results depend on the processing

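No paired analysis was possible because the labels carry no replicate numbers and each group has 1 array. Of the members, 5 were called for R848, 2 for CpG B and 1 for genotype in the fit on 6 arrays. CpG B gave 1 call with median scaling, without the detection filter and without the genotype term, and R848 gave 3 without the genotype term. Genotype gave 2 calls with an offset of 50 and over the genes detected on all 6 arrays. On 8 arrays the effects averaged over groups gave 8, 6 and 4 calls. Leaving out each array in turn, which leaves 1 residual degree of freedom, gave 0 to 6 calls for R848, 0 to 2 for CpG B and 1 for genotype. Past 2-fold, 2 members in place of 1 differed after R848 in wild type with median scaling, the processed values and the mean over probes, and 3 in place of 1 between genotypes after R848 with median scaling. Past 1.5-fold, 2 members in place of 1 differed after CpG B in wild type with the processed values and the mean over probes, and 1 in place of 2 between untreated genotypes with the processed values and an offset of 50. Tested over 7149 genes, a choice made after seeing the data, the 8-array fit called 0 members in place of 1 for CpG B in wild type, 2 in place of 3 for CpG B in the knockout and 1 in place of 3 between genotypes after R848. The cause of these differences was not tested. Median scaling moved the median R848 difference in wild type from -0.10 to 0.01 over all genes and from 0.13 to 0.32 over the members. It also turned the members' median genotype difference in untreated cells from 0.02 to -0.06. None of the single members' values followed across the alternatives changed sign. Of the values of single members, 223 kept their side of the threshold, 31 lost a call and 16 gained one. Members near background, such as Psmc6 and Psmd2, have the least signal to resolve small differences.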
